A study of Mus musculus with 80 samples.

Results

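The Cyp2d family was followed across 80 Illumina bead arrays of male mouse liver. Members were all entries of the deposited table whose gene symbol begins with Cyp2d, which gave 8 of 18138 entries: Cyp2d9, Cyp2d10, Cyp2d12, Cyp2d13, Cyp2d22, Cyp2d26, Cyp2d34 and Cyp2d40. The rule reads symbols only, although the family was taken up with earlier results of these data known. The mice were B6C3F1 males, a hybrid laboratory strain, and their age was not given in the sources used here. Ethinyl estradiol (EE2), a synthetic estrogen, was mixed into the feed for 7 d at 4 levels, with 10, 5, 2.5 or 1 ppm. Prednisone (PRED), the prodrug of the glucocorticoid prednisolone, was fed for 7 d at 25, 5, 2.5 or 1.25 ppm. Androstenedione (A4), a precursor of testosterone and of estrone, was given by gavage in 0.5% carboxymethyl cellulose over 7 d, with daily doses of 50, 20, 10 or 2 mg/kg. The highest dose of each compound was also continued to 28 d. There were 4 arrays in every treated group. The feed controls on plain diet had 6 arrays at 7 d and 6 at 28 d, and the gavage controls 4 at each duration, which makes 19 groups. Nothing in the labels says that the arrays of a group came from separate animals, so the spread behind the p-values is that of these samples and could be technical.

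Cytochrome P450 enzymes are heme proteins of the endoplasmic reticulum that oxidise drugs, steroids and other lipophilic compounds with electrons passed on by cytochrome P450 reductase. In human liver the subfamily is represented by CYP2D6, which clears many prescription drugs. The mouse carries a cluster of closely related Cyp2d genes. Cyp2d9 encodes a testosterone hydroxylase known in mouse as a male-biased liver enzyme, whose male level depends on the pulsatile male pattern of growth hormone. Cyp2d22 is the mouse gene most often compared with CYP2D6.

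In the RefSeq annotation of GRCm38.p6, the 8 genes lie within 423.9 kb of chromosome 15. Cyp2d22 stands at 82370527 to 82380260, Cyp2d10 at 82402845 to 82407253, Cyp2d9 at 82452377 to 82456827 and Cyp2d12 at 82555043 to 82559413. They are followed by Cyp2d34 at 82615963 to 82620956, Cyp2d13 at 82636750 to 82642045, Cyp2d40 at 82759833 to 82764122 and Cyp2d26 at 82790107 to 82794452. Cyp2d13 is annotated as a transcribed pseudogene and the other 7 as protein-coding. The genes are similar in sequence and the bead probe sequences were not used here, so how far a probe also reads a paralog is uncertain for every member.

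Promoter sequence from RefSeq (GRCm38.p6), a window of 300 bases around the annotated start, was at hand for 4 of the 8 members. It is shown because Cyp2d9 and Cyp2d10, whose windows are the most similar of the 4, changed by different amounts. The capitals mark the 2 longest separate words that all Cyp2d windows share, CTTTATAAGG and AAAGGGCA, found by comparing the windows with each other and searched on both strands. The words overlap in none of the windows.
Cyp2d40 promoter, chr15:82764073-82764372, minus strand: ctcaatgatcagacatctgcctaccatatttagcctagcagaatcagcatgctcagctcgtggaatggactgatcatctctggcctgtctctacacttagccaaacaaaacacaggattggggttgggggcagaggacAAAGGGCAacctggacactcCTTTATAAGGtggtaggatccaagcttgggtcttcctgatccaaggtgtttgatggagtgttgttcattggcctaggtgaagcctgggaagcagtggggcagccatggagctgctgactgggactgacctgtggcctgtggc
Cyp2d9 promoter, chr15:82452127-82452426, plus strand: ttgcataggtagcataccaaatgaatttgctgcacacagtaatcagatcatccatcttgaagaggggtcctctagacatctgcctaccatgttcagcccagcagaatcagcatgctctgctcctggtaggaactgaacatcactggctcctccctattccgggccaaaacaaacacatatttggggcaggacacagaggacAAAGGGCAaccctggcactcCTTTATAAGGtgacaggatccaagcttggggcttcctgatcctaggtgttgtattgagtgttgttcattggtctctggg
Cyp2d10 promoter, chr15:82407145-82407444, minus strand: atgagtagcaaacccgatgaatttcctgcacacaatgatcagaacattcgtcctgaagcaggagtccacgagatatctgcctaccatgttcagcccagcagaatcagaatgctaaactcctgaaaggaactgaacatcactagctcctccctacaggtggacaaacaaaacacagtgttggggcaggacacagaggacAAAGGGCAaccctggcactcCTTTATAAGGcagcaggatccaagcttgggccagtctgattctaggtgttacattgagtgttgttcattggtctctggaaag
Cyp2d26 promoter, chr15:82794196-82794495, minus strand: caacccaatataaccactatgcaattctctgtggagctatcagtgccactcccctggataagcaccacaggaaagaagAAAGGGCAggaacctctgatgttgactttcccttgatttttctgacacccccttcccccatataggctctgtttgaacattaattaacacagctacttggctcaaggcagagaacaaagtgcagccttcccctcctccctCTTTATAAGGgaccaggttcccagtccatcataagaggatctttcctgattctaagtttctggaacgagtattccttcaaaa
Both words stood in each of the 4 windows and in that of Cyp2d11, which was not analysed here. The words were picked because all Cyp2d windows share them, so their presence in each was fixed in advance and tests nothing. Of 32851 promoter windows of this length, 0.0974% held CTTTATAAGG and 1.82% held AAAGGGCA. CTTTATAAGG began at -29 from the annotated start in Cyp2d9, -32 in Cyp2d10 and Cyp2d26, and -92 in Cyp2d40. AAAGGGCA stood 20 bases before it in Cyp2d9, Cyp2d10 and Cyp2d40 and at -172 in Cyp2d26. In alignment the windows of Cyp2d9 and Cyp2d10 were 82.9% identical and those of Cyp2d10 and Cyp2d40 53.6%. TTCNNNGAA, the core of a STAT5 site, was in none of the 5 windows and in 8.3% of all promoters. AGGTCA, the half-site of an estrogen response element, was in the Cyp2d40 window alone, at 33 after the start, and in 16.3% of all promoters. CAAAGTCCA, an HNF4 motif, and TTGCGCAA, a C/EBP motif, were in none of the 5 (0.475% and 0.183% of all). The letters are a description of these windows only.

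The deposited intensities are linear and carry an uncorrected background near 100, with array medians of 105.7 to 106.4. Between 7743 and 9328 entries per array had a detection p under 0.05, and the number of arrays limits the precision. The hepatocyte transcripts Ttr, at 9161 to 16710, and Apoa1, at 10397 to 16044, were detected on all 80 arrays, but the Alb entry read only 93.8 to 420 and was detected on 47. Cyp2d9, Cyp2d10, Cyp2d22, Cyp2d26 and Cyp2d40 were detected on all 80 arrays, Cyp2d13 on 75 and Cyp2d12 on 52. Cyp2d34 was detected on none, and its group means of 94.8 to 99.4 lay at background. It was not tested, because the test took the 11352 genes detected on at least 4 arrays, and 7 of the 8 members passed. Cyp2d12 passed the detection limit on 0 of 20 EE2 arrays and on 52 of the other 60, so it passed only through groups other than EE2.

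EE2 lowered Cyp2d40 at every dose, to between 9.88% and 17.0% of the mean intensity of the feed control at 7 d. Cyp2d9 fell to between 54.9% and 65.4%, and Cyp2d12 ended at background at every dose. Cyp2d10 and Cyp2d13 fell at 5 and 10 ppm. Cyp2d22 and Cyp2d26 passed the threshold at none of the 4 doses, and no member rose. With chips as a fixed block, Cyp2d13 was called at 1 ppm too (adjusted p = 0.00362), as it was with the background subtracted (0.0379), and Cyp2d10 was called at 1 ppm with the spread of only the groups compared (0.0194). A call here is a Benjamini-Hochberg adjusted p under 0.05 from limma over all tested genes, and log2 changes are of intensity plus 16, which understates changes of dim genes. Of the 7 tested members, 3 fell at 1 ppm, where 7.06% of all tested genes fell, 3 at 2.5 ppm (background 7.02%), 5 at 5 ppm (11.6%) and 5 at 10 ppm (15.2%). Without Cyp2d12, which entered the test only through other groups, the counts were 2, 2, 4 and 4 of 6. With counts taken by range, 3, 2, 3 and 4 members had every EE2 array below every control array at 1, 2.5, 5 and 10 ppm, against 5.23%, 5.73%, 6.31% and 9.61% of all tested genes. Leaving out Cyp2d12, these range counts were 2, 1, 2 and 3 of 6. In whole-liver RNA, fewer cells of a type and less RNA per cell cannot be told apart.

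Cyp2d40 read 4134, 3850, 2930, 3157, 2392 and 4099 on the 6 feed control arrays of 7 d. The EE2 arrays read 279, 863, 592 and 598 at 1 ppm and 953, 400, 450 and 499 at 2.5 ppm. The higher doses gave 270, 543, 276 and 591 (5 ppm), then 324, 317, 329 and 384 (10 ppm). Every EE2 array lay below every control array, and the groups were far apart already at the lowest dose. The log2 change was -2.60 ± 0.23 (SE) at the 2 lower doses. It was -3.04 ± 0.23 at 5 ppm, and -3.26 ± 0.23 at 10 ppm (adjusted p = 4.95e-18). At 10 ppm it ranked 9 among the genes with the largest falls. Within the 2 chips that held both groups, each as a single array, its change at 10 ppm was -3.61 and -3.15.

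Cyp2d9, the testosterone hydroxylase, read 8103, 4506, 10397, 9584, 9082 and 8878 in the feed control of 7 d. The control array at 4506 stood far below its 5 companions, and because of it the EE2 groups overlapped the control at every dose. The EE2 arrays read 4956, 5623, 6446 and 5001 at 1 ppm, 4691, 6018, 4636 and 3144 at 2.5 ppm. With more EE2 they read 3418, 4909, 6619 and 5998 (5 ppm) or 5718, 4289, 5367 and 6572 (10 ppm). All 16 lay below the other 5 control arrays. The log2 change was -0.57 ± 0.19 at 1 ppm (adjusted p = 0.0302), -0.85 at 2.5 ppm (adjusted p = 0.000612), -0.68 at 5 ppm (adjusted p = 0.0044) and -0.59 at 10 ppm (adjusted p = 0.0111). These calls rest on the spread shared by all 19 groups: with the spread of only the groups compared, the adjusted p ran from 0.0578 to 0.162 over the 4 doses. The calls were also lost without EE2 replicate 1 at 5 ppm (adjusted p = 0.0765) and without EE2 replicate 2 at 10 ppm (0.0642). At 1 ppm that happened without EE2 replicates 1 (0.105) or 4 (0.0884), or without any of control replicates 3 to 6 (0.0519 to 0.0731). In the 2 chips with both groups the change was -0.79 and 0.06 at 2.5 ppm. The value of 0.06 set the EE2 array at 4691 against the low control array at 4506, so it rests on that same array.

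Cyp2d10 read 7488, 7305, 7772, 7806, 6905 and 7080 in the feed control of 7 d and 5998, 4885, 4920 and 5779 at 10 ppm EE2, all below the control. At 5 ppm the arrays read 4372, 5896, 5965 and 4946, again without overlap. Its log2 change was -0.49 ± 0.12 at 5 ppm (adjusted p = 0.00102) and -0.46 ± 0.12 at 10 ppm (adjusted p = 0.00156). At the lower doses the estimates were -0.31 and -0.27, with adjusted p of 0.0705 and 0.118. Within shared chips the change at 10 ppm was -0.67 and -0.32. At 2.5 ppm, without EE2 replicate 1 at 7806, the estimate was -0.38 (adjusted p = 0.0267).

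The dim members Cyp2d13 and Cyp2d12 sat close to background under EE2, so that their measured changes are limited by it. Cyp2d13, the transcribed pseudogene, read 131.6, 125.0, 172.3, 181.1, 184.6 and 169.6 in the control and 110.9, 100.3, 113.8 and 115.2 at 10 ppm, with no overlap. Its log2 change was -0.48 ± 0.15 at 10 ppm (adjusted p = 0.0133) and -0.47 at 5 ppm (adjusted p = 0.0205). Cyp2d12 read 131.4, 108.5, 130.1, 129.2, 118.3 and 119.2 in the control and 98.7, 97.8, 98.7 and 96.9 at 10 ppm, where it was not detected on any array. It was at least 1.16-fold to at least 1.19-fold lower over the 4 doses (adjusted p = 0.000475 at 10 ppm), computed against the lowest signal detected on each EE2 array. With the background subtracted, none of its calls against the feed control under EE2 held (adjusted p 0.0662 to 0.429). At 5 ppm, leaving out EE2 replicate 1 reduced the number of members called from 5 to 3: Cyp2d9 then had an adjusted p of 0.0765 and Cyp2d13 of 0.07. The Cyp2d13 call at 5 ppm was lost without EE2 replicate 4 too (adjusted p = 0.054).

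Cyp2d22 and Cyp2d26 stand at the ends of the cluster, and neither was called at 7 d. Cyp2d22 read 3342 to 3979 in the control and 2925, 2073, 3059 and 4279 at 10 ppm, where the highest EE2 array exceeded every control. Its log2 change was 0.09 ± 0.17 at 1 ppm and -0.32 ± 0.17 at 10 ppm (adjusted p = 0.137). Without that highest array, EE2 replicate 4, it was -0.49 (adjusted p = 0.0306). Cyp2d26 scattered widely at the 3 lower doses, with a coefficient of variation of 51.4% to 52.6%: its arrays read 1886, 5105, 1878 and 2716 at 1 ppm and 5710, 2381, 2279 and 2441 at 2.5 ppm, against 2383 to 3203 in the control. Its estimate at 10 ppm was -0.31 with a 95% interval of -0.78 to 0.15.

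**Figure D1:**
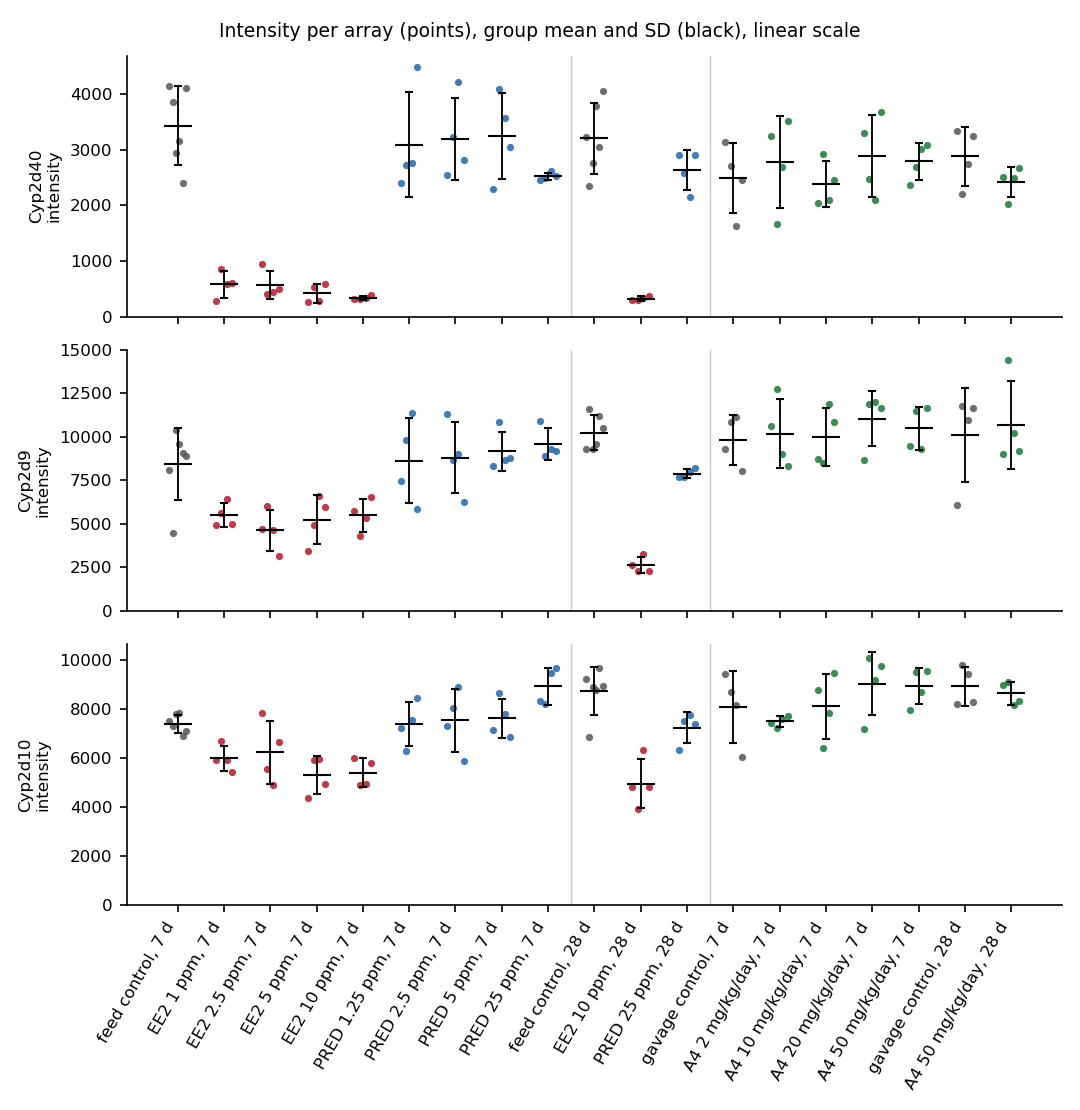
Normalized intensity of Cyp2d40, Cyp2d9 and Cyp2d10 on a linear axis for each of the 80 arrays (points) in the 19 groups, with the group mean and SD in black (grey controls, red EE2, blue PRED, green A4). The 20 EE2 arrays of Cyp2d40 lie at 270 to 953, below all 60 other arrays, and the EE2 group of 28 d is the lowest group for Cyp2d9.

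**Figure D2:**
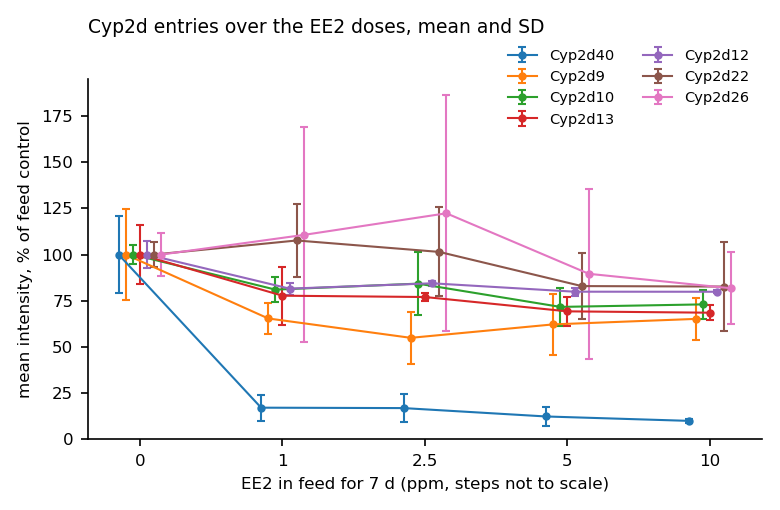
Mean intensity (points) and SD (bars) of 7 Cyp2d members as a percentage of the 7 d feed control mean, over EE2 doses in ppm at steps not to scale. Cyp2d40 drops to 17.0% at 1 ppm and 9.88% at 10 ppm, while Cyp2d22 and Cyp2d26 end at 82.6% and 81.7%. The background is not subtracted, so the percentages of the dim members Cyp2d12 and Cyp2d13 overstate what was left.

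Across the doses of 7 d, 6 of the 7 tested members fell in the trend test over equal dose steps, where 15.2% of all tested genes fell (5 of 6 without Cyp2d12). The slope per dose step was -0.70 ± 0.05 for Cyp2d40 (adjusted p = 5.5e-17), -0.13 ± 0.04 for Cyp2d9 (adjusted p = 0.0149) and -0.11 ± 0.03 for Cyp2d10. Cyp2d26 did not pass, at -0.09 ± 0.05. Of the 6 calls, those of Cyp2d9 (adjusted p = 0.0634) and Cyp2d22 (0.189) were lost without EE2 10 ppm replicate 2, and that of Cyp2d22 also without 5 other single EE2 arrays (0.0502 to 0.0592). The Cyp2d22 trend was lost as well with chips as a fixed block (0.0944), with shared sample-name numbers averaged (0.0564) and with only the groups compared (0.0807). The last setting also ended that of Cyp2d9 (0.0822), and background subtraction that of Cyp2d12 (0.114). The slope includes the step from no EE2 to 1 ppm. Between 1 and 10 ppm no member passed (0 of 7 by limma and 2 at an unadjusted p under 0.05, against 10.7% and 24.2% of all tested genes). The difference of 10 from 1 ppm was -0.66 ± 0.25 for Cyp2d40 (adjusted p = 0.0742) and -0.01 ± 0.20 for Cyp2d9. Without EE2 1 ppm replicate 1, the array that read 279, the difference of Cyp2d40 was -0.96 with an adjusted p of 0.00732. Without EE2 1 ppm replicate 3, Cyp2d22 passed instead, at an adjusted p of 0.0467.

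After 28 d of 10 ppm EE2, 6 of the 7 tested members were lower than in the feed control of 28 d, where 13.8% of all tested genes fell (5 of 6 without Cyp2d12). Cyp2d40 stayed at 10.2% of the control mean, Cyp2d9 was down to 25.6%, Cyp2d13 to 55.4%, Cyp2d10 to 56.9% and Cyp2d22 to 70.6%, and Cyp2d12 was at background. These percentages are of intensities that still carry the background, which weighs most on dim members. Cyp2d13 was close to background under EE2, so its 55.4% overstates what was left and cannot be ranked against that of Cyp2d10. In 5 members every EE2 array lay below every control array, as in 12.6% of all tested genes (4 of 6 without Cyp2d12). Cyp2d26 did not pass, with a log2 change of -0.36 ± 0.23 (adjusted p = 0.265).

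Cyp2d9 read 9321, 11573, 9277, 9584, 11212 and 10502 in the control of 28 d and 2645, 2304, 3272 and 2275 under EE2. The groups were clearly separated, with a log2 change of -1.97 ± 0.19 (adjusted p = 2.26e-13) and with -2.25 and -2.12 in the 2 chips shared by these groups. Cyp2d40 read 3219, 2346, 2758, 3783, 3049 and 4056 in the control and 296, 303, 332 and 379 under EE2, which gave -3.21 ± 0.23 (adjusted p = 1.4e-18). For Cyp2d10 the control read 9198, 6852, 8878, 8751, 9675 and 8914 and EE2 4794, 3902, 6298 and 4817, again with no overlap, at -0.83 ± 0.12 (adjusted p = 6.37e-08). Cyp2d13 fell by 0.76 on the log2 scale (adjusted p = 9.47e-05), with 163.0 to 245.1 in the control and 102.4 to 113.3 under EE2.

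Cyp2d22, the gene compared with CYP2D6, read 5998, 3967, 5220, 4448, 5878 and 4896 in the control of 28 d and 3789, 2500, 4872 and 3144 under EE2. The groups overlapped through the array at 4872. Its log2 change was -0.53 ± 0.17 (adjusted p = 0.0113), with -0.77 and -0.07 in the 2 shared chips, but without EE2 replicate 2, the array at 2500, it was -0.37 (adjusted p = 0.127). The call was also lost with chips as a fixed block (adjusted p = 0.0505) and with arrays that share a sample-name number averaged (adjusted p = 0.0519). With only the groups compared, both Cyp2d22 (adjusted p = 0.0525) and Cyp2d12 (0.0669) missed the threshold, which left 4 of 7 members called, against 31.8% of all tested genes in either direction.

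The change of Cyp2d9 was larger at 28 d than at 7 d. The difference between the 28 d and the 7 d change was -1.38 ± 0.26 (adjusted p = 0.00055), and Cyp2d9 was the only one of the 7 tested members to pass this test, where 1.2% of all tested genes were lower. The corresponding difference was 0.05 ± 0.32 for Cyp2d40 and -0.37 ± 0.17 for Cyp2d10 (adjusted p = 0.25). The control arrays of Cyp2d9 were at 8425 ± 2066 (SD, n = 6) at 7 d and 10245 ± 999 at 28 d, and the EE2 arrays of 10 ppm at 5487 ± 945 (SD, n = 4) and 2624 ± 463. The 4 EE2 arrays of 28 d all read below the 4 of 7 d.

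Macrophage markers rose under EE2, unevenly among the arrays. At 10 ppm, 10 of 11 tested markers rose at 7 d (18.1% of all tested genes) and 10 of 11 at 28 d (14.8%). Their median log2 changes were 1.123 and 1.378, beside -0.0014 and -0.008 over all tested genes. At 1 ppm 1 of 11 rose, where 6.29% of all tested genes did. Lyz2, a lysozyme of myeloid cells, was at 1.77 and 1.97 at the 2 durations and Vsig4, a complement receptor of Kupffer cells, at 1.62 and 2.14. The summed intensity of 12 markers was 4708 to 6718 in the feed control of 7 d, 5692 to 24766 at 10 ppm for 7 d, 3651 to 5939 in the feed control of 28 d and 15941 to 18187 under EE2 for 28 d, with Cd5l not among the tested. At 1 ppm the sum ran from 3323 to 30128. Of the 20 EE2 arrays, 8 did not exceed the highest feed control sum, and all 8 were from 7 d. Hepatocyte markers summed to 65117 to 68571 in the 7 d control and 58879 to 66340 at 10 ppm. Of the 9 tested, 2 fell, where 15.2% of all tested genes did. For the 28 d group the sums were 66347 to 72699 and 57926 to 65963. Of 5 erythroid markers 2 fell at 10 ppm for 7 d (15.2% of all tested genes), among them Alas2, the erythroid enzyme of heme synthesis, at -2.68. The part of these shifts in the Cyp2d results was not tested.

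No Cyp2d member passed the test under PRED at 7 d, and Cyp2d22 fell at 28 d. From the lowest to the highest of the 4 doses of 7 d, 0 of the 7 tested members passed by limma, while 0.0264%, 0%, 0.599% and 6.01% of all tested genes did. At an unadjusted p under 0.05 there were 0, 0, 1 and 2 members, against 4.4%, 3.49%, 11.7% and 19.7% of all tested genes. Cyp2d40, the member with the largest measured fall under EE2, read 2460, 2492, 2612 and 2517 at 25 ppm PRED, inside the control's 2392 to 4134. Its log2 change was -0.41 with a 95% interval of -0.87 to 0.04. Cyp2d10 read 8327, 8199, 9447 and 9675, all above the control's 6905 to 7806, but its change of 0.27 ± 0.12 had an adjusted p of 0.181. With the spread of only the groups compared, it was called (adjusted p = 0.0231). The trend over the PRED doses called none of the members (7.31% of all tested genes called), and 2 had an unadjusted p under 0.05 (21.4% of all).

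After 28 d of 25 ppm PRED, Cyp2d22 read 3009, 3150, 3997 and 3190, against 3967 to 5998 in the control. Of the 4 arrays, 3 lay below every control, and the log2 change was -0.59 ± 0.17 (adjusted p = 0.0119). It was the only call among the 7 tested members, where 9.89% of all tested genes were called and 5.25% fell. At an unadjusted p under 0.05 there were 3 members, against 23.7% of all tested genes. Cyp2d9 read 7670, 7670, 7999 and 8199, and was the 1 member with all arrays below the control's 9277 to 11573, against 7.42% of all tested genes. Its change was -0.37 ± 0.19 (adjusted p = 0.213), and it was called with the spread of only the groups compared (adjusted p = 0.00712). The Cyp2d22 call did not hold without PRED replicate 1 (adjusted p = 0.0544) or with arrays sharing a sample-name number averaged (adjusted p = 0.215). On the 2 chips that carried both groups, the Cyp2d22 difference was -0.99 and -0.15. No member passed the test of the 28 d against the 7 d change under PRED (0 of 7 by limma and 4 at an unadjusted p under 0.05, against 1.42% and 18.9% of all tested genes). The estimate for Cyp2d10 was -0.53 ± 0.17 (adjusted p = 0.0749), and it passed without feed control 28 d replicate 2 (adjusted p = 0.0303) or without PRED 7 d replicate 1 (adjusted p = 0.0494).

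At the 2 feed levels that EE2 and PRED shared, Cyp2d40 and Cyp2d9 were lower under EE2. At 2.5 ppm 3 of the 7 tested members were lower, where 4.07% of all tested genes were, and at 5 ppm 4, where 8.43% were. The log2 difference of EE2 from PRED was -2.50 ± 0.25 for Cyp2d40 at 2.5 ppm (adjusted p = 1.2e-11) and -2.96 ± 0.25 at 5 ppm (adjusted p = 2.1e-14). For Cyp2d9 it was -0.94 (adjusted p = 0.000929) and -0.84 (adjusted p = 0.00189). Cyp2d13 was lower at both levels, though at 2.5 ppm its adjusted p of 0.0452 rose above the threshold without any single EE2 array and without PRED 2.5 ppm replicates 1 or 2 (0.0647 to 0.251). That call was lost as well with chips as a fixed block (-0.32, adjusted p = 0.113) or a random block (0.0505), with shared sample-name numbers averaged (0.0548) and with no filter on dim genes (0.0696). At 5 ppm its call was lost without PRED replicate 3 (0.132). Cyp2d10 was lower at 5 ppm, at -0.53 (adjusted p = 0.00196). It was not called at 2.5 ppm, at -0.28, except without EE2 replicate 1 (adjusted p = 0.0481). With the spread of only the groups compared, Cyp2d40 alone was called at each level.

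No member passed the test under A4. In the 4 dose groups of 7 d and the group of 28 d, 0 of the 7 tested members passed by limma, as did 0% of all tested genes. At an unadjusted p under 0.05 there was 1 member at the lowest dose, where 5.25% of all tested genes were, and 0 at the 3 higher doses (1.98%, 2.67% and 3.78%) and at 28 d (2.3%). The estimates for the 7 members over these 5 comparisons ran from -0.27 to 0.22 on the log2 scale, and their 95% intervals from -0.76 to 0.71. For Cyp2d9 at 50 mg/kg/day the arrays read 9499, 11503, 9321 and 11632 at 7 d against 9321, 10846, 11145 and 8029 in the gavage control. Its interval was -0.31 to 0.51 at both durations. Cyp2d40 read 2371, 2687, 3018 and 3090 at 50 mg/kg/day for 7 d against 3144, 2712, 1638 and 2460. At 28 d Cyp2d26 was the 1 member with every array below the gavage control, at 2873 to 3137 against 3191 to 3614 (1.45% of all tested genes). Its log2 change was -0.20, with an unadjusted exact p of 0.0286, the smallest that 4 against 4 arrays allow. Neither the A4 trend nor the difference between durations called a member, with 0% and 0.00881% of all tested genes called by limma. At an unadjusted p under 0.05 they had 1 and 0 members, against 2.81% and 3.7% of all tested genes.

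The 4 control groups showed no called difference among the members. Between gavage and feed, 0 of 7 passed by limma at either duration, as did 0% of all tested genes, and 3 members at 7 d and 0 at 28 d had an unadjusted p under 0.05, against 11.7% and 3.83% of all. Between 28 d and 7 d, 0 of 7 passed in the feed control (1.02% of all tested genes called) and 0 in the gavage control (0%). There, 2 and 1 members had an unadjusted p under 0.05, against 16.5% and 4.89% of all. The estimate furthest from 0 for duration was Cyp2d22 in the feed control, at 0.43 ± 0.15 (adjusted p = 0.12).

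**Figure D3:**
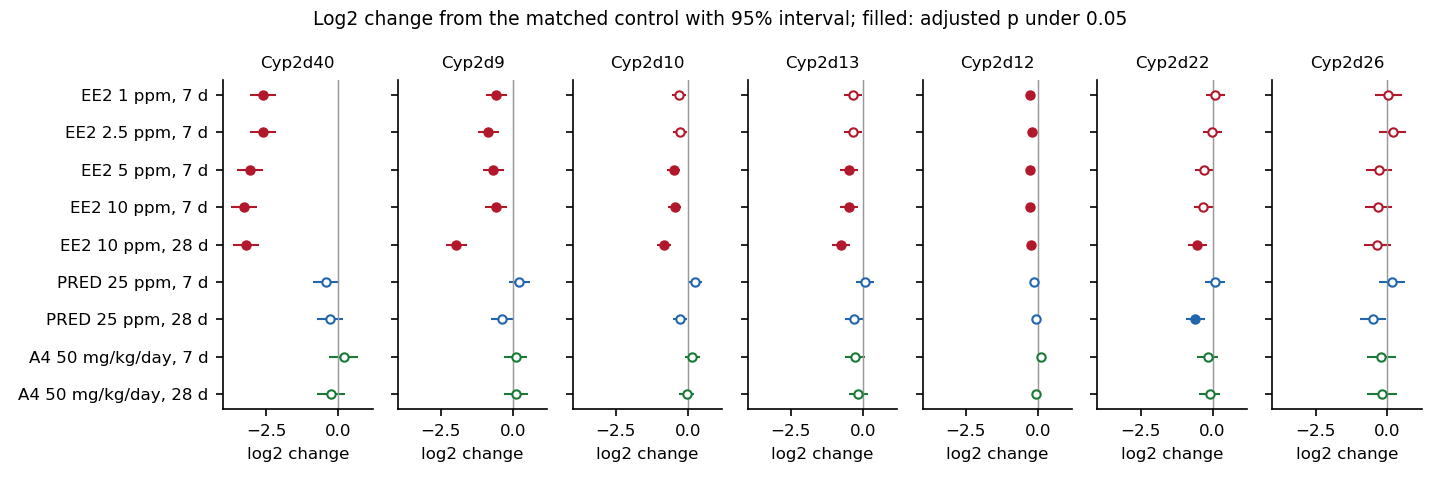
Log2 change from the matched control (points) with 95% intervals (lines) for 7 Cyp2d members under EE2 (red), PRED (blue, 25 ppm) and A4 (green, 50 mg/kg/day); filled points had an adjusted p under 0.05. Only EE2 points and the Cyp2d22 point of PRED at 28 d are filled, and the Cyp2d40 points of EE2 lie between -2.60 and -3.26.

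The members changed by different amounts under EE2. Each pair was compared by the within-array difference of their log2 values, treated against control, in a two-sided exact permutation test, with 21 pairs in each of 6 comparisons and p-values adjusted over all of them. At 10 ppm for 7 d, the measured fall of Cyp2d40 was larger than that of each of the 5 other members detected under EE2. The gap was 2.67 on the log2 scale against Cyp2d9 and 2.94 against Cyp2d22 (exact p = 0.00476 and adjusted p = 0.0316 for each of the 5). No other pair among these 6 members passed. Differences from Cyp2d12 have no size under EE2, since it was at background there. Cyp2d13 was close to background under EE2 at both durations, which limits its measured fall. Its pairs with Cyp2d40 or Cyp2d9 therefore cannot show that Cyp2d13 itself fell less. At 28 d, 9 of the 15 pairs among the 6 passed, namely Cyp2d40 and Cyp2d9 against each other member and against each other. Cyp2d9 had then fallen further than Cyp2d10, the member with the promoter window most like its own, by a log2 difference of -1.14 (exact p = 0.00476, adjusted p = 0.0316). Cyp2d40 still fell further than Cyp2d9, by 1.24. Under PRED, where all 7 tested members entered, 1 pair passed at 7 d, Cyp2d10 against Cyp2d12 with a difference of 0.40. At 28 d 1 pair passed, Cyp2d9 against Cyp2d12 with -0.32, again at the smallest p the design allows. Each of these PRED pairs rests on Cyp2d12, whose measured change is limited by background. At 25 ppm PRED it was detected on 3 of 4 arrays at 7 d and on 2 of 4 at 28 d. Among the 15 pairs without Cyp2d12, 0 passed under PRED at either duration. These exact tests count every array as a separate sample. In the 28 d groups, 3 of the 6 feed control arrays share a sample-name number, as do 2 of the 4 EE2 arrays, and the labels do not say what the number stands for. With arrays of a shared number averaged, an alternative added after seeing the data, the smallest possible exact p was 0.0286 at 28 d and 0.00794 at 7 d. In either comparison 0 pairs passed. The smallest adjusted p was then 0.167 at 7 d and 0.212 at 28 d, although the ranges of those pairs did not overlap. With so few permutations this loss does not bear on the pair differences. Leaving out 1 array also allows fewer permutations, and for EE2 no pair then passed, except without replicate 2 of the feed control (8 of all 21 pairs at 7 d, 13 at 28 d). For A4 the smallest possible exact p was 0.0286, which could not pass after adjustment.

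In the order of the 19 group means, Cyp2d40 was highest in the 7 d feed control, at 3427 ± 710 (SD, n = 6), and lowest under EE2 for 28 d, at 327 ± 37.6 (SD, n = 4). The 14 groups without EE2 ran from 2381 to 3427 and the 5 EE2 groups from 327 to 583. Of the 18 pairs of neighbours in this order, 1 had ranges that did not overlap, the step between A4 at 10 mg/kg/day (2381) and EE2 at 1 ppm (583). Cyp2d9 also had 1 such step, and the other tested members had 0. It lay between PRED at 25 ppm for 28 d (7884) and EE2 at 1 ppm (5507), with A4 at 20 mg/kg/day the highest group (11053). For Cyp2d10, Cyp2d12 and Cyp2d13 the 5 EE2 groups were the 5 lowest means as well. For Cyp2d22 3 of them were among the 5 lowest, and for Cyp2d26 2.

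**Figure D4:**
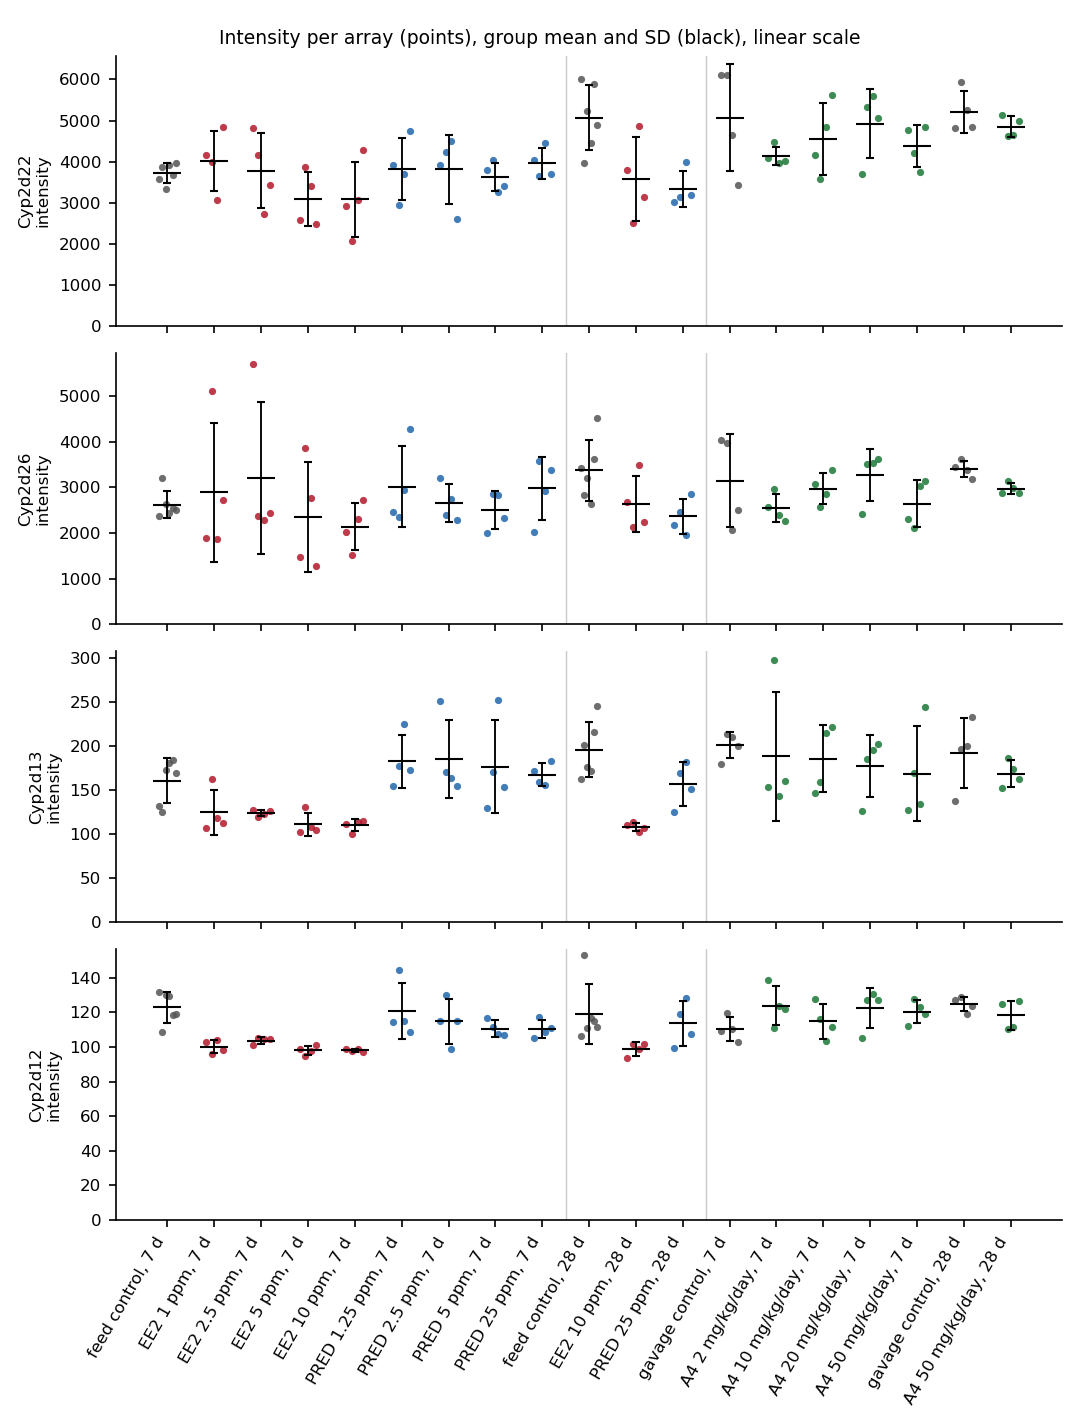
Normalized intensity of Cyp2d22, Cyp2d26, Cyp2d13 and Cyp2d12 on linear axes for each array (points) with the group mean and SD (black), in the same 19 groups and colours (grey controls, red EE2, blue PRED, green A4). Cyp2d12 in the EE2 groups sits at 93.3 to 105, and the Cyp2d26 arrays of EE2 spread from 1282 to 5710.

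Over the 19 group means on the log2 scale, Pearson correlations among the members were highest for Cyp2d13 with Cyp2d40 (0.939) and Cyp2d9 with Cyp2d10 (0.926). They were lowest for Cyp2d9 with Cyp2d26 (0.45) and Cyp2d26 with Cyp2d40 (0.498), while Cyp2d22 and Cyp2d26 followed each other at 0.881. These points share arrays, normalization and the gap between EE2 and the other groups, so the values describe and test nothing. Outside the family, the genes most like Cyp2d40 were Hsd3b5, a male-biased steroid dehydrogenase (0.985), Slc22a7, an organic anion transporter (0.984), and Elovl3, a fatty acid elongase (0.984). Those most like Cyp2d9 were Ttc39c (0.974), Cyp4a12a, a male-biased fatty acid hydroxylase (0.966), and Keg1 (0.957). Hsd3b5 was at -5.68 and -5.90 under EE2 at 10 ppm for 7 and 28 d, and Cyp4a12a at -3.33 and -5.07. For Cyp2d10 they were OTTMUSG00000004551 (0.974), Caln1 (0.968) and Acads, an acyl-CoA dehydrogenase (0.963). For Cyp2d13 they were Asb13, Col18a1 and Dnajb2 (0.958 to 0.967), and for Cyp2d12 Nat8, Wbp1 and Rnf8 (0.954 to 0.961). Shmt1, Fbxo3 and Coq8a were nearest to Cyp2d22 (0.936 to 0.957), and Slc47a1, Aldh8a1 and 1300013J15Rik to Cyp2d26 (0.866 to 0.886).

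Among 23 tested male-biased liver genes outside the family, 20 fell at 1 ppm EE2 (7.06% of all tested genes), 16 at 10 ppm for 7 d (15.2%) and 21 at 28 d (13.8%), while 0, 0 and 1 rose. Their median log2 changes were -1.14, -0.98 and -1.55, beside 0.00075, -0.0014 and -0.008 over all tested genes. At 28 d the largest were Car3, a carbonic anhydrase, at -6.18, Hsd3b5 at -5.90, Cyp4a12a at -5.07 and Serpina1e, a serine protease inhibitor, at -3.89. Like Cyp2d9, 4 of the 23 changed further down at 28 d than at 7 d, against 1.2% of all tested genes: Serpina1e (difference -3.73), Cyp4a12a (-1.74), Mup3 (-0.91) and Mup1 (-0.62). Of 14 female-biased genes, 7 rose at 1 ppm, 3 at 10 ppm for 7 d and 7 at 28 d, where Cyp17a1, a steroid hydroxylase and lyase, was at 4.45. Of all tested genes, 6.29%, 18.1% and 14.8% rose, so the count at 10 ppm for 7 d is near that share.

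Of 34 other tested genes of the Cyp1 to Cyp4 families, some are also on the sex-biased lists. Under 10 ppm EE2 for 7 d, 3 of the 34 rose and 12 fell (18.1% and 15.2% of all tested genes). At 28 d, 6 rose and 12 fell (14.8% and 13.8% of all). Cyp4a12a (-5.07), Cyp1a2, which oxidises caffeine (-2.86), Cyp4f14 (-2.81) and Cyp4a14, a fatty acid hydroxylase (2.70), were the furthest from 0 at 28 d. Of 7 partners that supply P450 enzymes with electrons, 1 rose and 3 fell at 28 d, where 14.8% of all tested genes rose and 13.8% fell. Por, the cytochrome P450 reductase, was at 1.07 (adjusted p = 0.0037) and Cyb5r3, a cytochrome b5 reductase, at -0.97. Among 12 heme genes 3 rose and 2 fell, with Alas1, the rate-limiting enzyme of heme synthesis in liver, at 2.42. Of 11 pericentral hepatocyte genes 8 fell and 0 rose at 28 d, and of 11 periportal genes 3 rose and 2 fell.

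The genes around the cluster were also read out. Of the 5 nearest tested genes on each side, 2 fell at 1 ppm EE2, 2 rose and 6 fell at 10 ppm for 7 d, and 1 rose and 2 fell at 28 d. Over all tested genes, 7.06% fell at 1 ppm, 14.8% rose and 13.8% fell at 28 d, and 18.1% rose and 15.2% fell at 10 ppm for 7 d. At that dose and time they included Cyb5r3 at -1.07, Smdt1, a regulator of the mitochondrial calcium uniporter, at -0.72, Ndufa6, a subunit of respiratory complex I, at -0.66 and Poldip3 at 0.36. In the growth hormone axis, 1 of 10 tested genes rose and 3 fell at 10 ppm for 7 d, and 2 rose and 3 fell at 28 d. Among them Igf1 was at -1.05 at 7 d, Stat5a at 1.41 at 28 d and Bcl6, a repressor in the same pathway, at -1.58 at 28 d. Of 17 hepatocyte transcription factors and nuclear receptors, 4 rose and 4 fell at 7 d, with Cebpa at -1.06 and Hnf4a at 0.68.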

How the data were processed

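RNA of 80 liver samples was labelled as biotinylated cRNA and read on Illumina bead arrays, per the labels. GenomeStudio is named, without a version, in the submitters' processing notes. The deposited intensity table holds 1 normalized intensity per symbol and array, and the authors' detection p-value beside it. The sources used here do not give the normalization method. A median of 36.8% of an array's intensities recurred exactly on another array, so equal values do not mark duplicate samples. Samples were grouped by their titles. Each of 10 chips held 6 to 8 groups. Sample names hold 70 numbers, of which 9 were on several arrays.

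Symbols were updated through the RefSeq table (2725 updated, 1106 of 18138 not found or ambiguous), and 8 control entries were left out. The analysis scale was log2(value + 16). It was fitted by limma 3.58.1 (R 4.3.3, statmod 1.5.0): 1 model of 19 group means, 61 residual degrees of freedom, 11352 genes detected (p under 0.05) on 4 or more arrays, 28 comparisons, two-sided, Benjamini-Hochberg within each, threshold 0.05. Pairs of members and single members were tested by exact permutation in Python 3.11.15 (numpy 2.4.6, pandas 2.3.3). A member undetected on every array of a group is given as "at least N-fold" lower, from the mean of the other group against the higher of its own signal and the lowest detected signal per array. Figures used matplotlib 3.10.9. The fit was tested on simulated data. The family and the gene lists were chosen with earlier results of these data known, although the rule for members reads only symbols. All Cyp2d entries are named, with the 3 genes most like each in group means and up to 4 genes per list with the largest change among those called. Alternatives are given in the closing section.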

Additional observations from a re-analysis of the deposited data

Results flagged for a closer look

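Within groups of 4 or 6 arrays, an array far from its companions was found in 11 of 133 combinations of member and group by Dixon's criterion, where chance gives about 1 in 20, or 6.7. In the feed control of 7 d, replicate 2 was low for Cyp2d9 (4506) and high for Cyp2d26 (3203). In the feed control of 28 d, replicate 2 was low for Cyp2d10 (6852) and high for Cyp2d12 (153). In the A4 group of 20 mg/kg/day, replicate 1 was low for Cyp2d9 (8685), Cyp2d26 (2411) and Cyp2d12 (105). In the EE2 group of 2.5 ppm, replicate 1 was high for Cyp2d26 (5710) and low for Cyp2d12 (101). The gavage control of 28 d had a low Cyp2d9 array in replicate 1 (6100), and the A4 group of 2 mg/kg/day a high Cyp2d13 array in replicate 2 (297). The Cyp2d9 change under 10 ppm EE2 differed between durations, by -1.38 on the log2 scale (28 d minus 7 d).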

How the results depend on the processing

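No paired analysis was run, because the labels give no replicate numbers that groups share and only 1 sample-name number spanned 2 groups. Chip and sample-name number were fitted as blocks instead. The calls of Cyp2d40 against the feed control under EE2 held under every alternative run. With the spread of only the groups compared, the members called numbered 1 under PRED 25 ppm at 7 d (8.71% of all tested genes called), 2 at 28 d (13.6%), 2 for the PRED duration difference (3.06%), and 1 for EE2 against PRED at 2.5 ppm (3.9%) and at 5 ppm (2.03%). Averaging arrays that share a sample-name number, or using the number as a random block (consensus correlation 0.378, against 0.0519 for chip), left 0 under PRED at 28 d (4.67% and 6.03%). Subtracting the background gave 1 member, Cyp2d40, for EE2 10 against 1 ppm (12.1%), and 0 pairs under PRED at 7 d and at 28 d. Taking log2 with no added constant also gave 0 pairs under PRED at 28 d. Background subtraction also ended all 5 EE2 calls of Cyp2d12 against the feed control (adjusted p 0.0662 to 0.429). The exact permutation test, unadjusted, called 1 member under PRED 5 ppm (11.2% of all tested genes), 3 under PRED 25 ppm at 7 d (21.6%), 4 at 28 d (26.5%), 1 under A4 at 28 d (2.75%), 2 between gavage and feed at 7 d (10.3%) and 4 between the feed controls (18.4%). With shared sample-name numbers averaged, an alternative chosen after seeing the data, 0 pairs passed under EE2 and under PRED. Averaging leaves fewer permutations, so pairs whose ranges did not overlap missed the threshold too, and nothing follows from this count. The cause of these shifts was not tested.

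Leaving out 1 replicate at a time gave 3 to 5 members under EE2 5 ppm, 0 to 1 under PRED 25 ppm at 28 d, 0 to 1 for the PRED duration difference and 0 to 1 for EE2 10 against 1 ppm. For pairs it gave 0 to 8 under EE2 at 7 d, 0 to 13 at 28 d, 0 to 1 under PRED at 7 d and 0 to 3 at 28 d. The highest pair counts were without replicate 2 of the feed control of that duration. With 1 array fewer there are fewer permutations, so the smallest p they allow is larger. Signal over background limits Cyp2d12, Cyp2d13 and Cyp2d34.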
